A study of Mus musculus with 12 samples.

Results

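The matrix metalloproteinases, the ADAM and ADAMTS proteases and the TIMP inhibitors were followed in mouse mammary tumours driven by 6 versions of the ErbB2 receptor. The members are the genes whose name in the array files is Mmp, Timp, Adam or Adamts followed by a number. They were read from 114 probes, and where a gene had more than 1 probe, as 34 did, the probe with the highest mean intensity over all arrays stood for it. This gave 68 genes, of 28920 genes on the array, and all 68 were bright enough to be tested. In 64 of them the tumour signal was well above background on all 24 arrays. On each array 97.3% to 98.9% of all gene spots met this mark, so it sets few genes apart. The members that missed it on some arrays were Adam22, which met it on 22 arrays, Adam28 on 23, Adam7 on 19 and Adamts13 on 20. A further 5 probes, for Adam6b, Adamts9, Adamts3 and Adam23, carry clone names in the files and so fall outside the selection.

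Matrix metalloproteinases (MMPs) are zinc enzymes, secreted or held at the cell surface, that cut collagens and other matrix proteins. ADAMs are membrane proteases that release the outer part of receptors, adhesion molecules and growth factors, among them ligands of the ErbB family, and many ADAMs of the mouse serve in sperm. ADAMTS enzymes are secreted relatives that trim proteoglycans and procollagens, and TIMPs bind the active sites of these enzymes and block them. In mammary tumours much of the MMP transcript is known to come from stromal cells and macrophages, not from the tumour epithelium.

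The tumours arose in female mice of 6 strains, and the strains all carry an activated neu (rat ErbB2) transgene, neu NDL, under the MMTV promoter, which is active in mammary and other secretory epithelia. In NYPD the tyrosine autophosphorylation sites of the receptor tail are lost. In YB, YC, YD and YE a single one of these sites is restored on the NYPD background, a different site in each strain. NDL25, named NDL2-5 in the design, is the parental strain with the full receptor, so no group is normal mammary gland. Mice had borne tumours for 6 weeks, and their ages are not given in the sources used. RNA from 10 tumours per strain was mixed into 2 pools of 5 tumours. Whether tumours of one pool shared a mouse is not stated in those sources. The partner on every array was Universal Mouse Reference RNA, a mixture sold for this purpose, and each pool was read on a pair of arrays with exchanged dyes. A value below is the log2 ratio of tumour over that reference, 1 value per pool, and n = 2 pools per strain throughout. A ratio near 0 means that tumour and reference gave like signals, and does not by itself tell whether the gene was expressed or silent in both. The offset of the background correction also draws dim probes towards 0.

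Tumour medians ran from 364.8 to 763.5 intensity units per array over local backgrounds of 39 to 64, and the number of pools limits the precision. Luminal epithelial markers were high in all 12 pools as a list, with list medians of 2.57 to 2.99. Of the 8, Krt19 passed, at 3.40 in YB minus NDL25 and -3.42 in YE minus NYPD, where the list median differences were 0.10 and -0.09. Of 8 endothelial markers, Emcn passed at 0.72 in YB minus NYPD and Pecam1 at -0.83 in YE minus NYPD. The part of luminal or endothelial content in the member differences was not tested. The YB pools also held salivary gland transcripts, with list medians of 3.60 and 3.93 for 9 measured markers, against at most 0.42 in the other 10 pools. Of these 9 markers, 6 were higher in YB than in NDL25 by the test. YB pool 1 and NDL25 pool 1 stood apart on the brightest probe of Erbb2, the gene of the transgene, at 1.85 and 1.64 against 3.42 to 4.19 in the other 10 pools. On 2 dimmer Erbb2 probes they did not both stand apart. They were at 0.81 and 0.97 on 1 of them, where all 12 pools ran from 0.45 to 1.03. On the other they were at 0.24 and -0.01, where all pools ran from -0.01 to 0.37. The calls named below in contrasts with NDL25 or YB are also given with both of these pools left out. Without them the YB differences of Krt19 and Emcn were 3.09 and 0.62 and no longer passed. The arrays fall into 3 feature-extraction sessions per the file headers. NYPD arrays form a session of their own, so NYPD and its session cannot be told apart. YB and NDL25 were read in the same session. All YD and YE arrays fall in another session, which holds no NDL25 array, and YC arrays fall in both of these sessions. The contrasts of YD and YE with NDL25 therefore cross sessions, and the main fit does not adjust for this.

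Most members lay close to the reference. In 37 of 68 members (54.4%) every pool was within 0.5 log2 units of it, and 52.8% of all genes tested were. All 16 ADAMs with a mainly testicular role were in this range, and their strain means differed by at most 0.27. In the map of log2 ratios by gene and pool, Adam2 and Adam3, which encode sperm surface proteins, are near white in all strains. At the other end, 6 members were more than 0.5 below the reference in every pool and 4 more than 0.5 above it. The lowest were Mmp11, Timp1, Timp2, Timp3, Adamts1 and Adamts5. The 4 highest were Mmp15, Mmp16, Adamts8 and Adamts15, and the ratios of Mmp15, which encodes the membrane enzyme MT2-MMP, ran from 3.10 in YE pool 1 to 3.69 in YD pool 2. In bulk tumour RNA, fewer cells of a type and less RNA per cell cannot be told apart.

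**Figure D1:**
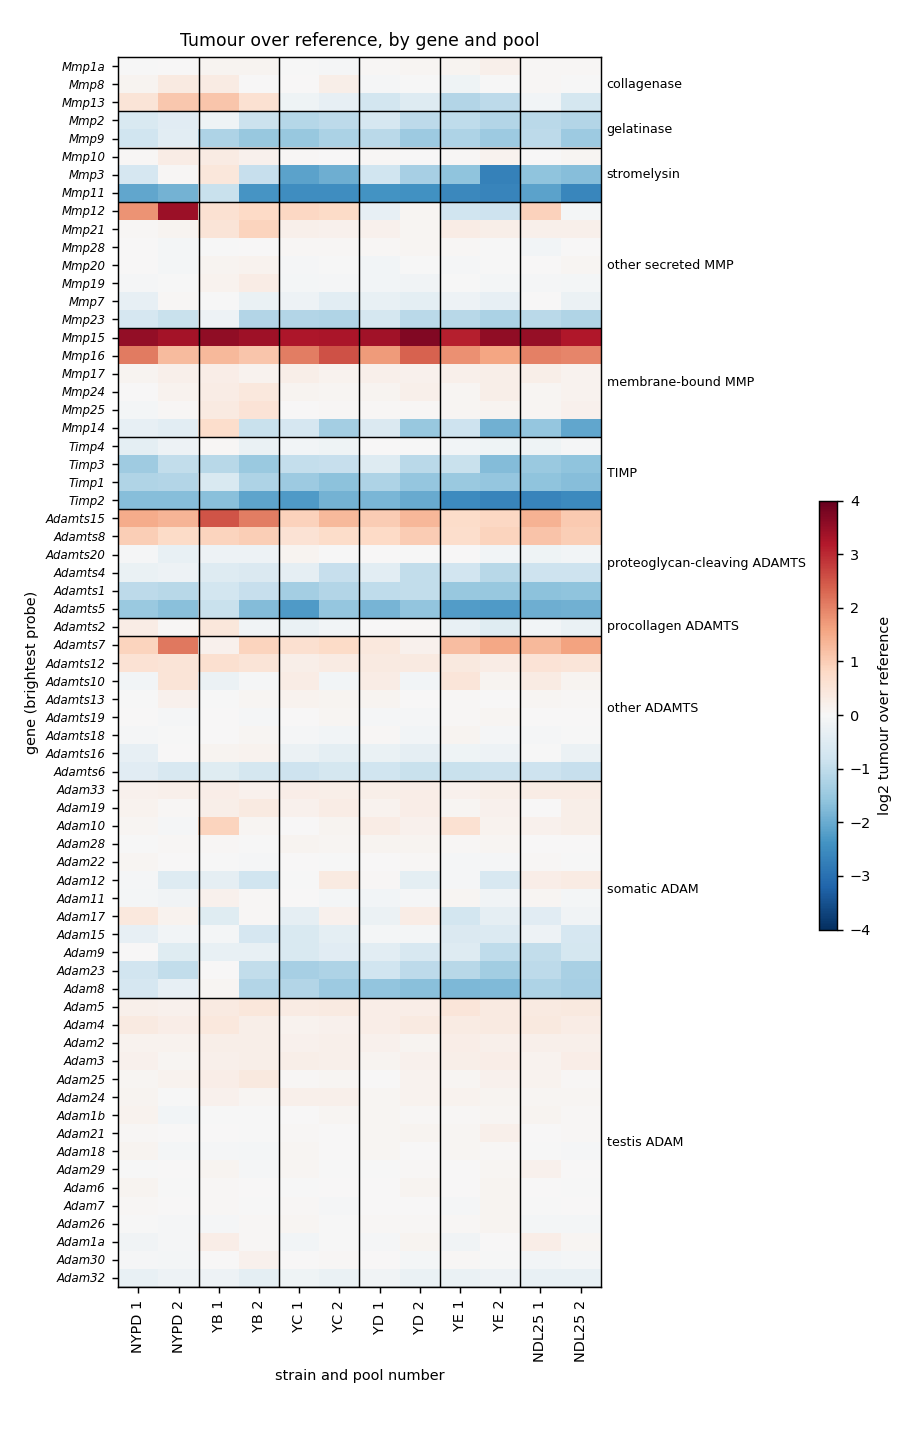
Log2 tumour over reference of the 68 members (vertical axis, grouped by role) in each of the 12 pools (horizontal axis, 2 pools per strain); red is above and blue below the reference. Mmp15 is above 3 in every pool, the testis ADAMs are near 0, and Mmp12 reaches 3.42 in NYPD pool 2.

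Only a few members passed the test in any comparison. By limma's moderated F test over the 6 strains, 3 of 68 members differed (adjusted p under 0.05 after Benjamini-Hochberg adjustment over 28689 genes), and 3.19% of all genes did. Against NDL25, 1 member rose in NYPD tumours, where 1.04% of all genes passed and 0.453% did so upward, and 3 rose in YB tumours, where 3.92% of all genes passed and 3.13% did so upward. The members' shares in these comparisons, 1.47% and 4.41%, were close to those of all genes. In limma, 0 members passed against NDL25 in YC, YD and YE tumours, beside 0.00697%, 0.00697% and 0% of all genes past the threshold. An unadjusted p under 0.05 was reached by 5 members in each of them, which is 7.35%, beside 11.3%, 10.4% and 7.56% of all genes. Against NYPD, 2 members rose in YB tumours, where 5.1% of all genes passed and 4.02% did so upward, and 3 fell in YE tumours, where 1.88% of all genes passed and 1.04% did so downward. Against NYPD, limma called 0 members in YC and 0 in YD tumours, beside 0.0174% and 0.0105% of all genes. An unadjusted p under 0.05 was reached there by 11 members (16.2%) in YC and 8 (11.8%) in YD, beside 10.3% and 10.8% of all genes. The comparisons with NDL25 share its pools, and those with NYPD share the NYPD pools.

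The median of the members moved little. In YB minus NDL25 it was 0.07, beside -0.01 over all genes, and 48 of 68 members (70.6%) were positive, beside 47.2% of all genes. In NYPD minus NDL25 it was 0.03, beside -0.01, and 40 of 68 (58.8%) were positive, beside 46.0%. In YE minus NYPD it was -0.01, beside 0.01, and 32 of 68 (47.1%) were positive, beside 53.6%. By limma, 19 members (27.9%) in YB minus NDL25 had an unadjusted p under 0.05, beside 17.3% of all genes. There were 14 (20.6%) in NYPD minus NDL25, 15 (22.1%) in YB minus NYPD and 18 (26.5%) in YE minus NYPD. The shares of all genes were 15.7%, 20% and 19.4%. The 7 members called in at least 1 test were Mmp13, Mmp12, Mmp21, Mmp25, Timp2, Adamts1 and Adamts15, and none was saturated on any array.

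**Figure D2:**
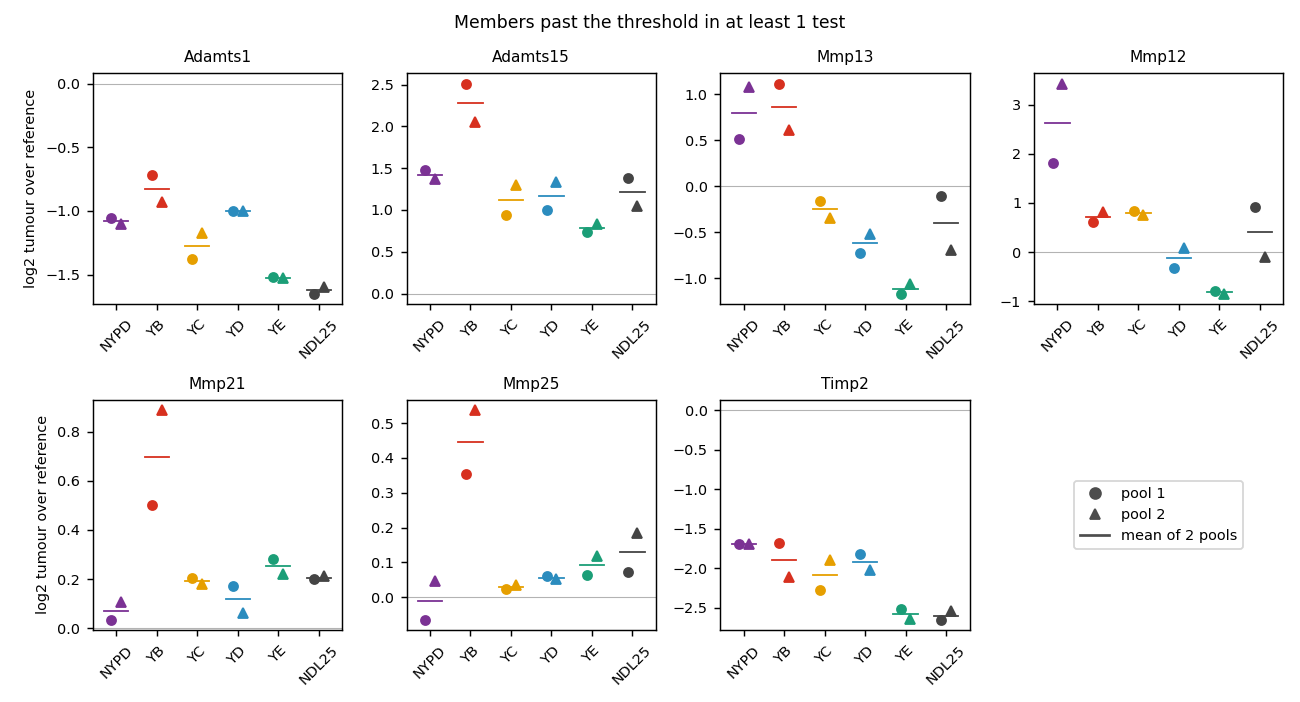
Log2 tumour over reference (vertical axis, its own range in each panel) by strain (horizontal axis) for the 7 members past the threshold in at least 1 test; circles are pool 1, triangles pool 2 and bars the mean of both. Mmp12 is highest in NYPD and lowest in YE, and Adamts15, Mmp21 and Mmp25 are highest in YB.

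Mmp13, Mmp12 and Mmp3 varied most among the MMPs that lie side by side on chromosome 9, and their start regions are shown because these genes carry the widest strain differences of that cluster. In RefSeq the order there is Mmp13, Mmp12, Mmp1b, Mmp3, Mmp1a, Mmp10, Mmp8, Mmp27, Mmp20 and Mmp7, of which 8 were members. The strain means of Mmp12 spanned 3.43 log2 units, those of Mmp13 spanned 1.97 and those of Mmp3 spanned 1.92. In the other 5 measured neighbours the span was 0.17 to 0.33. The windows of 300 bases around the annotated start are from RefSeq, build GRCm38.p6, plus strand, at chr9:7272264-7272563 for Mmp13, chr9:7347124-7347423 for Mmp12 and chr9:7445572-7445871 for Mmp3. Capitals mark the letters TGAGTCA or their reverse complement TGACTCA, the core recognised by AP-1 factors.
Mmp13: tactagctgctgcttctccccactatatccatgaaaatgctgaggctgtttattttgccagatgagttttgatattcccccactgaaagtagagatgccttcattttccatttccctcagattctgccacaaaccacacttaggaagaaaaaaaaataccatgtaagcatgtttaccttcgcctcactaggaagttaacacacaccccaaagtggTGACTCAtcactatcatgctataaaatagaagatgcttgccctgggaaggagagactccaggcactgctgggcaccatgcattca
Mmp12: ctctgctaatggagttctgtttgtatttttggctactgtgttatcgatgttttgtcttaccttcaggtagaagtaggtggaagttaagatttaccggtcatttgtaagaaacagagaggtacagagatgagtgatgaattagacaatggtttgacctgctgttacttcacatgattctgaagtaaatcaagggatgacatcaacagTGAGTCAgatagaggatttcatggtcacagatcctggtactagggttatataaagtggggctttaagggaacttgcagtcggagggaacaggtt
Mmp3: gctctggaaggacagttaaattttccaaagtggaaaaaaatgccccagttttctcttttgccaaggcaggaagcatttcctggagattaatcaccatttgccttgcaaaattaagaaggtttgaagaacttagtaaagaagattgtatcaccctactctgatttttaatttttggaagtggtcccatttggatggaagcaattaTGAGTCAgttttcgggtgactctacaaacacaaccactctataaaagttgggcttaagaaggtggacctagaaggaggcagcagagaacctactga
Windows were available for 39 members, 44 windows in all. On either strand, TGAGTCA was present in 9 of these 44 windows, from 9 members, and in 5.20% of all 32851 windows. Besides these 3 genes it was present in Mmp1a, Mmp10, Mmp7, Adam1b, Adam19 and Adam29, so it was not limited to the cluster genes that varied. The shorter letters AGGAAG, recognised by PEA3-type ETS factors, were on either strand of 20 of the 44 windows, from 19 members, and of 35.4% of all windows. Of the windows printed above, those of Mmp13 and Mmp3 held them and that of Mmp12 did not. A second RefSeq window of Mmp12, which starts at base 7344147 of chromosome 9, held AGGAAG on the minus strand but not TGAGTCA. These matches describe the letters and are not evidence of binding.

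Among the collagenases, Mmp13, which cleaves fibrillar collagens, rose in YB relative to NDL25 tumours and fell in YE relative to NYPD tumours. Its log2 ratios were 1.12 and 0.61 in YB pools against -0.11 and -0.69 in NDL25 pools. Both YB pools were above both NDL25 pools. The log2 difference was 1.26 ± 0.26 (SE, n = 2 pools each), a 2.40-fold rise with adjusted p = 0.041. In YE pools the ratios were -1.17 and -1.06, against 0.51 and 1.09 in NYPD pools. The YE pools were the lowest of all 12, and the difference from NYPD was -1.91 ± 0.26 with adjusted p = 0.0245. The ratios were -0.16 and -0.34 in YC pools and -0.72 and -0.52 in YD pools, with adjusted p = 0.218 for YC and 0.113 for YD against NYPD. NYPD averaged 0.80 ± 0.41 (SD) and NDL25 -0.40 ± 0.42, and this contrast of 1.20 ± 0.26 did not pass, with adjusted p = 0.0787. The F test gave adjusted p = 0.0281. Mmp8, the neutrophil collagenase, and Mmp1a stayed within 0.5 of the reference in all pools and passed no test.

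The YB rise of Mmp13 passed in 3 of 12 fits that each left out 1 pool, with adjusted p from 0.0417 to 0.197, and was lost without NDL25 pool 1, NDL25 pool 2, YB pool 1 or any pool of YC, YD or YE. Without both NDL25 pool 1 and YB pool 1 it was 1.30 with adjusted p = 0.107, with the session as a block 1.26 with adjusted p = 0.0828, and within the session that holds both strains 1.26 with adjusted p = 0.272. In the authors' deposited ratios it was 1.61 with adjusted p = 0.0636. For this and the other calls, a fit without a pool of a strain outside the contrast keeps the difference itself. Such a fit changes only the shared spread, the degrees of freedom and the adjustment. The YE fall passed in 9 of 12, and was lost without YE pool 1, YE pool 2 or NYPD pool 2, with adjusted p of at most 0.153. The F-test call of Mmp13 was kept in 5 of 12, with adjusted p of at most 0.0817.

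Mmp2 and Mmp9 encode the gelatinases, which cleave denatured collagen and basement membrane collagen, and neither passed a test. Mmp2 was at -0.60 and -0.44 in NYPD pools and at -0.16 and -0.87 in YB pools, against -1.08 and -1.19 in NDL25 pools. Both NYPD pools and both YB pools lay above the NDL25 pools, yet the differences of 0.61 ± 0.22 and 0.62 ± 0.22 had adjusted p = 0.232 and 0.192. Mmp9 was at -0.81 and -0.42 in NYPD pools and between -1.52 and -1.05 in the other 10 pools, so the NYPD pools were the highest. The difference of NYPD from NDL25 was 0.63 ± 0.20 with adjusted p = 0.187, and a second Mmp9 probe gave 1.08.

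Of the stromelysins, which cut proteoglycans, laminin and fibronectin, Mmp3 varied widely between and within strains. Its ratios were -0.66 and 0.05 in NYPD pools, 0.46 and -0.92 in YB pools, -2.13 and -1.96 in YC pools, -0.78 and -1.33 in YD pools, -1.61 and -2.70 in YE pools and -1.62 and -1.70 in NDL25 pools. NYPD and YB pools were high and YC, YE and NDL25 pools low, without overlap between those sets. The pools of YB differed from each other by 1.38 and those of YE by 1.09, and the differences of 1.35 ± 0.50 for NYPD and 1.42 ± 0.50 for YB against NDL25 did not pass, with adjusted p = 0.248 and 0.191. Mmp11, stromelysin-3, known from the stroma of breast carcinomas, was the lowest member in 9 of 12 pools. It lay between -2.63 and -1.89 in 11 pools and at -0.91 in YB pool 1. Mmp10 stayed between 0.00 and 0.33 and passed no test.

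Among the other secreted MMPs, Mmp12, the macrophage elastase, gave the largest difference of any member. Its ratios were -0.78 and -0.84 in YE pools against 1.81 and 3.42 in NYPD pools. Both YE pools lay far below both NYPD pools, and they were the lowest of the 12. The difference was -3.43 ± 0.50 with adjusted p = 0.0257, about 0.0928 of the NYPD level. The ratios were 0.61 and 0.81 in YB pools, 0.83 and 0.76 in YC pools, -0.33 and 0.08 in YD pools and 0.91 and -0.09 in NDL25 pools. No other strain reached the lower NYPD pool, but the contrasts with NYPD gave adjusted p = 0.075 for YB, 0.251 for YC and 0.112 for YD, and NYPD minus NDL25, 2.21 ± 0.50, gave 0.0861. The YE call was kept in 8 of 12 fits that left out 1 pool and was lost without either YE pool or either YD pool, with adjusted p of at most 0.174. Without NYPD pool 1, Mmp12 also passed as lower in YC and in YD tumours.

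Macrophage markers moved less than Mmp12 in the same contrast. All 10 were well above background on every array, and their list median was 1.67 and 1.34 in YE pools against 1.71 and 1.80 in NYPD pools. In YE minus NYPD 1 of the 10 was higher and 9 lower in value, with a median difference of -0.36, beside -3.43 for Mmp12, and 1 passed the test. The marker that passed was Lyz2, the macrophage lysozyme, at 1.44 and 1.12 in YE pools against 2.63 and 2.90 in NYPD pools. The part of macrophage number in the Mmp12 difference was not tested.

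Mmp21, which in the mouse is known for its role in left-right patterning, rose in YB tumours. It was at 0.50 and 0.89 in YB pools against 0.03 and 0.11 in NYPD pools, and the remaining 8 pools lay between 0.06 and 0.28. The YB pools were above all others. The difference from NYPD was 0.63 ± 0.11, a 1.54-fold rise with adjusted p = 0.024, and that from NDL25 was 0.49 ± 0.11 with adjusted p = 0.0596. Mmp19, a broadly expressed MMP, was also highest in YB, at 0.13 and 0.29, against at most -0.01 in the other 10 pools, with adjusted p = 0.0567 against NDL25. Mmp7, matrilysin, and Mmp20, the enamel protease, stayed within 0.5 of the reference in all pools. Mmp23, whose product is released from the membrane on activation, was at -0.19 and -1.18 in YB pools against -1.09 and -1.21 in NDL25 pools, so the pools of YB were far apart.

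The membrane-bound MMPs included Mmp15, the member with the highest ratios. Mmp25, an MMP known from leukocytes that is anchored by a lipid, rose in YB tumours. It was at 0.36 and 0.54 in YB pools against -0.07 and 0.05 in NYPD pools, and the other 8 pools reached at most 0.18. The YB pools again lay above all others, by 0.46 ± 0.08 over NYPD with adjusted p = 0.0187, and by 0.32 ± 0.08 over NDL25 with adjusted p = 0.0664. Mmp24, also membrane-bound, was at 0.30 and 0.42 in YB pools and at most 0.24 elsewhere, and passed no test. The call of Mmp25 was lost without YB pool 2, NYPD pool 1 or NYPD pool 2, and that of Mmp21 without either YC pool or either NYPD pool. With NDL25 pool 1 and YB pool 1 both left out, the differences from NYPD were 0.55 for Mmp25 with adjusted p = 0.0181 and 0.82 for Mmp21 with adjusted p = 0.00719. Salivary gland markers were high in the same pools, as given above, and their part in these differences was not tested.

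Mmp14 encodes MT1-MMP, the membrane enzyme that activates pro-MMP2. Its ratios were -0.33 and -0.42 in NYPD pools, 0.69 and -0.88 in YB pools, -0.66 and -1.36 in YC pools, -0.57 and -1.50 in YD pools, -0.83 and -1.91 in YE pools and -1.54 and -2.07 in NDL25 pools. The 2 NDL25 pools and YE pool 2 were the lowest, and YB pool 1 was the highest. The differences of the means from NDL25, 1.43 ± 0.58 in NYPD and 1.71 ± 0.58 in YB, did not pass, with adjusted p = 0.293 and 0.176. A second, dimmer Mmp14 probe gave 1.01 for NYPD and 0.60 for YB. Mmp16, MT3-MMP, was between 1.10 and 2.56 in all pools, with the lowest strain mean in YB, and no contrast passed.

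**Figure D3:**
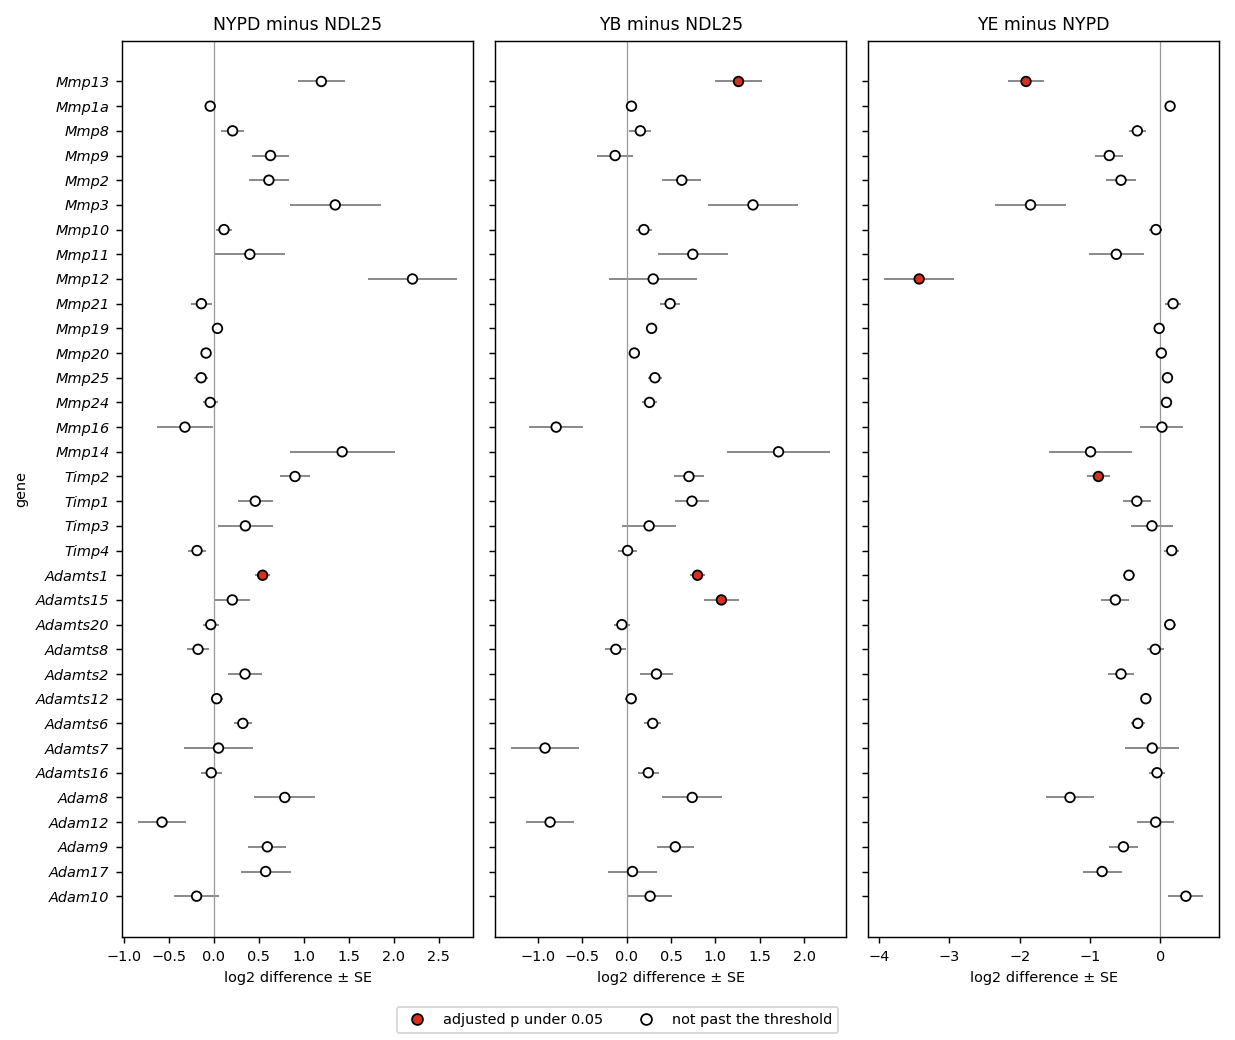
Log2 difference ± SE (horizontal axis) of 34 members (vertical axis) in NYPD minus NDL25, YB minus NDL25 and YE minus NYPD, with 2 pools in each strain; filled points passed the test. The filled points are Adamts1 in NYPD, Mmp13, Adamts1 and Adamts15 in YB, and Mmp13, Mmp12 and Timp2 in YE.

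Of the TIMPs, 3 of 4 were more than 0.5 below the reference in every pool. Timp2, which both blocks MMPs and takes part in pro-MMP2 activation by MT1-MMP, fell in YE tumours. It was at -2.51 and -2.64 in YE pools against -1.69 and -1.70 in NYPD pools. The YE pools lay below both NYPD pools and were near the NDL25 pools, at -2.65 and -2.54. The difference from NYPD was -0.88 ± 0.17, 0.543 of the NYPD level, with adjusted p = 0.0456. The ratios were -1.68 and -2.11 in YB pools, -2.28 and -1.89 in YC pools and -1.82 and -2.01 in YD pools. Relative to NDL25, Timp2 was 0.90 ± 0.17 higher in NYPD, 0.70 ± 0.17 in YB and 0.68 ± 0.17 in YD, and the adjusted p values of 0.0556, 0.0645 and 0.216 missed the threshold. The YE call was kept in 4 of 12 fits that left out 1 pool, and was lost without any pool of YE, NYPD, YD or NDL25, with adjusted p of at most 0.241. It was also lost with the scanner's processed signals, with adjusted p = 0.0514.

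Timp1, an inhibitor induced by growth factors and inflammation, was at -1.19 and -1.18 in NYPD pools and at -0.60 and -1.22 in YB pools, against -1.60 and -1.69 in NDL25 pools. The pools of NYPD and YB were above those of NDL25, by 0.46 ± 0.19 with adjusted p = 0.307 and by 0.74 ± 0.19 with adjusted p = 0.091. The other 2 Timp1 probes gave 0.74 and 0.70 for NYPD and 0.88 and 0.89 for YB. Timp3, which is bound to the matrix and also inhibits ADAM17, ran from -1.74 in YE pool 2 to -0.50 in YD pool 1, with adjusted p = 0.515 in the F test. Timp4, known from heart and adipose tissue, was between -0.38 and 0.05.

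The ADAMTS enzymes that cleave proteoglycans such as versican and aggrecan held both members of the family that passed. Adamts1 rose in NYPD and in YB tumours. It was at -1.05 and -1.10 in NYPD pools and at -0.72 and -0.93 in YB pools, against -1.65 and -1.60 in NDL25 pools. The pools of a strain were close together, and the strains did not overlap. The differences from NDL25 were 0.54 ± 0.09 in NYPD, a 1.46-fold rise with adjusted p = 0.0403, and 0.80 ± 0.09 in YB, a 1.74-fold rise with adjusted p = 0.00518. The ratios were -1.37 and -1.17 in YC pools, -1.0 and -1.0 in YD pools and -1.52 and -1.53 in YE pools. YD was higher than NDL25 by 0.62 ± 0.09, but in that comparison, where few genes passed, the adjusted p was 0.0741. The F test gave adjusted p = 0.0178, and a dimmer second probe gave 0.26 for NYPD and 0.45 for YB.

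The YB rise of Adamts1 was kept in 11 of 12 fits that left out 1 pool, more than any other call of a member, and was lost without NDL25 pool 1, at 0.77 with adjusted p = 0.0522. Without both NDL25 pool 1 and YB pool 1 it was 0.67 with adjusted p = 0.0521, and within their shared session 0.80 with adjusted p = 0.188. The NYPD rise was kept in 4 of 12, was lost without any pool of NYPD, NDL25, YD or YE, and reached adjusted p = 0.206. With NDL25 pool 1 and YB pool 1 both left out it was 0.52 with adjusted p = 0.128. The F-test call of Adamts1 was kept in 7 of 12 fits, with adjusted p of at most 0.0648.

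Adamts15 rose in YB tumours. It was at 2.51 and 2.06 in YB pools against 1.38 and 1.05 in NDL25 pools, and at 1.48 and 1.37 in NYPD pools, 0.93 and 1.30 in YC pools, 1.0 and 1.34 in YD pools and 0.74 and 0.83 in YE pools. The YB pools were above all 10 others. The difference from NDL25 was 1.07 ± 0.20, a 2.10-fold rise with adjusted p = 0.0303, that from NYPD was 0.86 ± 0.20 with adjusted p = 0.0517, and the F test gave adjusted p = 0.0451. The rise was kept in 7 of 12 fits and lost without NDL25 pool 1, NDL25 pool 2, YB pool 1 or either YE pool, with adjusted p of at most 0.163. The F-test call was kept in 0 of 12 fits, with adjusted p from 0.0515 to 0.112. Without both NDL25 pool 1 and YB pool 1 it was 1.01 with adjusted p = 0.122, with the session as a block 1.07 with adjusted p = 0.079, within the shared session 1.07 with adjusted p = 0.254, and in the authors' deposited ratios 0.76 with adjusted p = 0.187. Adamts5, an aggrecanase, was between -2.27 and -0.89, and Adamts4, another aggrecanase, between -1.10 and -0.20, and neither passed a test. Adamts8, an ADAMTS known to inhibit blood vessel growth, was between 0.58 and 1.13 in all pools, and Adamts20, known for its role in pigment cells, between -0.28 and 0.11.

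No other ADAMTS passed. Adamts2, which removes the amino-terminal propeptide of procollagen, was at -0.31 and -0.47 in YE pools against 0.28 and 0.06 in NYPD pools, a difference of -0.56 ± 0.18 with adjusted p = 0.162. Its other probes gave -1.40 and 0.09 in this contrast, so the 3 probes did not give the same answer. Adamts7, an enzyme studied in vascular disease, was at 0.18 and 0.88 in YB pools and 0.42 and 0.18 in YD pools, against 1.29 and 1.61 in NDL25 pools. Both strains lay below NDL25, by a log2 difference of -0.92 ± 0.38 in YB with adjusted p = 0.27 and -1.15 ± 0.38 in YD with adjusted p = 0.356, and the second probe gave -0.68 and -0.80. Adamts6 was at -0.47 and -0.64 in NYPD pools and -0.48 and -0.70 in YB pools, against -0.82 and -0.93 in NDL25 pools, differences of 0.32 ± 0.10 and 0.29 ± 0.10 that did not pass. Adamts12 stayed between 0.23 and 0.63. For Adamts16, chosen here after its values were seen, the brightest probe averaged 0.12 in YB and a dimmer probe 1.75, while that dimmer probe averaged between -0.02 and 0.04 in the other 5 strains.

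No ADAM passed a test by limma. Of the 12 ADAMs of somatic tissues, 2 in YB minus NDL25 and 3 in YE minus NYPD had an unadjusted p under 0.05. Of all genes, 17.3% and 19.4% did so in these contrasts. Adam10 and Adam17, the main shedding enzymes for ErbB ligands, Notch and TNF, were between -0.04 and 0.88 and between -0.72 and 0.43. Adam17 was at -0.72 and -0.36 in YE pools against 0.43 and 0.14 in NYPD pools. The YE pools were below the NYPD pools, by a difference of -0.83 ± 0.28 with adjusted p = 0.167. Adam8, an ADAM of leukocytes, was at -1.80 and -1.76 in YE pools and at -1.59 and -1.67 in YD pools, against -0.66 and -0.33 in NYPD pools. The differences from NYPD were -1.28 ± 0.34 in YE and -1.14 ± 0.34 in YD, with adjusted p = 0.105 and 0.287. Adam12, whose human counterpart is raised in breast cancer, was at -0.35 and -0.79 in YB pools against 0.26 and 0.32 in NDL25 pools, a difference of -0.86 ± 0.27 with adjusted p = 0.138. Adam9, a membrane protease found in many tissues, was at 0.01 and -0.50 in NYPD pools and -0.30 and -0.29 in YB pools, against -0.97 and -0.71 in NDL25 pools, with adjusted p = 0.225 and 0.229. Among the testis ADAMs, Adam5, whose product acts in sperm, was at 0.47 and 0.37 in YE pools against 0.21 and 0.18 in NYPD pools, with adjusted p = 0.0932.

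YB pool 1 was unlike YB pool 2 in many members. It was higher by at least 0.5 in 13 of 68 members and lower by at least 0.5 in 2. The widest gaps were in Mmp14 (1.57), Mmp11 (1.46), Mmp3 (1.38), Adam8 (1.25), Adam23 (1.0) and Mmp23 (0.99). Over all 28689 genes, 1674 were higher by that much in pool 1 and 1401 lower. The fibroblast markers moved the same way, with 10 of 10 higher by at least 0.5 in YB pool 1, and so did 6 of 10 macrophage markers. Of the other lists, 2 of 8 adipocyte, 1 of 9 neutrophil and 1 of 8 T and B cell markers were higher by that much and 0 lower. Of 9 salivary gland markers 2 were higher and 3 lower. In the luminal and the myoepithelial list, 1 of 8 was higher and 1 lower. Of 8 skeletal muscle markers 0 were higher and 1 lower, and 0 of 8 endothelial markers differed by that much.

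The fibroblast list is given by strain because several MMPs of the stroma were high in the same pools. All 10 markers were well above background on every array. Their list median was 0.10 and -0.48 in NYPD pools, 0.27 and -1.0 in YB pools, -1.70 and -1.25 in YC pools, -0.29 and -1.02 in YD pools, -1.38 and -2.11 in YE pools and -1.18 and -1.27 in NDL25 pools. YB pool 1 and NYPD pool 1 were the highest and YE pool 2 was the lowest. In YE minus NYPD 10 of 10 were lower in value, with a median of -1.13, and in NYPD minus NDL25 and YB minus NDL25 10 of 10 were higher, with medians of 0.72 and 0.79. By limma 0 of the 10 passed in these 3 comparisons or in the F test. An unadjusted p under 0.05 was reached by 9 of them in YE minus NYPD, by 3 in NYPD minus NDL25 and by 3 in YB minus NDL25. Of all genes, 19.4%, 15.7% and 17.3% reached it in these 3 contrasts. In the F test 6 of the 10 markers reached it, beside 6099 of 28689 genes. The part of fibroblast content in the differences of Mmp13, Timp2, Adamts1 and the members that did not pass was not tested.

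Myoepithelial markers had calls in the same contrasts. Of 8 markers 7 were well above background on every array. Their list median was 0.26 and 1.51 in NYPD pools, 0.39 and 0.43 in YB pools, 0.14 and 0.21 in YC pools, 0.46 and 0.41 in YD pools, 0.06 and 0.05 in YE pools and -0.06 and 0.05 in NDL25 pools. NYPD pool 2 was the highest. In NYPD minus NDL25, 7 of 8 were higher in value with a median of 0.70, and 2 passed, Oxtr, the oxytocin receptor, and Trp63, the basal cell factor p63. In YB minus NDL25, 7 of 8 were higher with a median of 0.40 and Trp63 passed. With NDL25 pool 1 and YB pool 1 both left out, the rise of Oxtr in NYPD was 1.03 and no longer passed. The rises of Trp63 over NDL25 were then 1.54 in NYPD and 1.07 in YB, and were kept. In YE minus NYPD, 0 of 8 were higher, with a median of -0.63, and Trp63 passed as lower. In YB minus NYPD, 2 of 8 were higher, with a median of -0.45, and Trp63 passed as lower, at -0.78. With the same 2 pools left out, this difference of Trp63 was -0.48 and no longer passed. The part of myoepithelial content in the member differences was not tested.

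**Figure D4:**
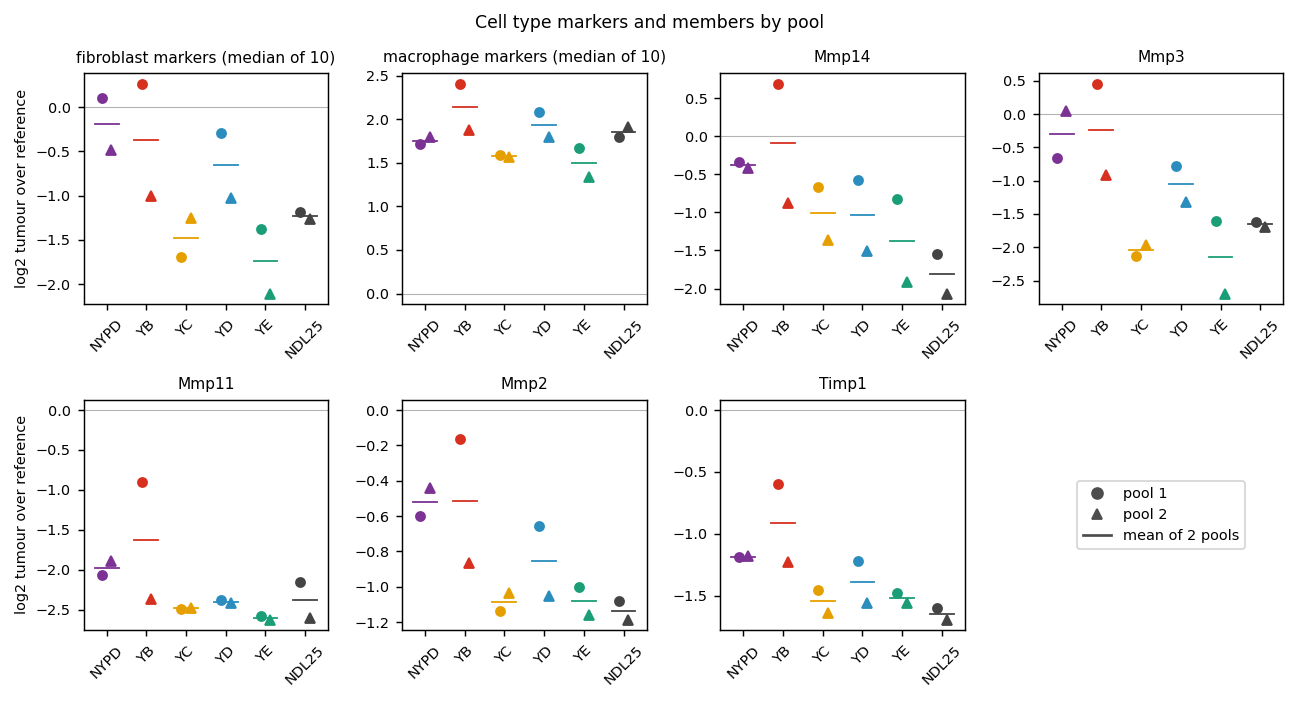
Log2 tumour over reference (vertical axis, its own range in each panel) by strain (horizontal axis) for the medians of 10 fibroblast and 10 macrophage markers and for Mmp14, Mmp3, Mmp11, Mmp2 and Timp1; circles are pool 1, triangles pool 2 and bars the mean of both. In YB the circle lies above the triangle in every panel, by 1.57 for Mmp14.

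Regulators of pericellular proteolysis, a list of 36 genes of which 35 were tested, had calls in the 4 contrasts in which members had them. Of these, 1 rose in NYPD and 4 rose in YB against NDL25, 4 rose in YB and 2 fell in YE against NYPD, and 0 passed in the other 5 comparisons by limma, with 1 to 6 at an unadjusted p under 0.05 in each. These counts stand beside the 1.04%, 3.92%, 5.1% and 1.88% of all genes called in the same 4 contrasts. In the other 5, 7.56% to 11.3% of all genes reached an unadjusted p under 0.05 by limma. Their median difference was 0.25 in NYPD minus NDL25, 0.14 in YB minus NDL25 and -0.32 in YE minus NYPD. Adamtsl4, an ADAMTS-like matrix protein without protease activity, was at 0.68 and 0.55 in YB pools against -1.21 and -1.29 in NDL25 pools. It was at -0.58 or below in the other 8 pools, and the YB rise was 1.87 ± 0.14 with adjusted p = 0.00114. Ctsb, the lysosomal protease cathepsin B, was at -0.43 and -0.45 in YE pools against 0.58 and 0.68 in NYPD pools. Its fall of 1.07 on the log2 scale in YE had adjusted p = 0.0137, and its rise of 0.71 in NYPD over NDL25 had adjusted p = 0.0316. With NDL25 pool 1 and YB pool 1 both left out, the rise of Adamtsl4 was 1.84 with adjusted p = 0.0241, and that of Ctsb was 0.79 and no longer passed, with adjusted p = 0.0736.

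Plat, tissue plasminogen activator, was at 0.11 and 0.09 in YB pools against -0.76 and -0.53 in NDL25 pools, a rise of 0.74 ± 0.09 with adjusted p = 0.00615. Plaur, the urokinase receptor, was at -0.39 and -0.26 in YB pools against -0.84 and -1.27 in NDL25 pools, with adjusted p = 0.0276. Bmp1, which trims the carboxy-terminal propeptide of procollagen, rose by 0.59 ± 0.10 in YB over NDL25 with adjusted p = 0.0226 and fell by 0.68 in YE relative to NYPD with adjusted p = 0.0276. Spock1, a proteoglycan of the matrix, rose by 0.33 ± 0.05 in YB over NYPD with adjusted p = 0.0141. With the same 2 pools left out, the YB calls of Plaur (adjusted p = 0.0169) and Spock1 (0.0473) were kept, and those over NDL25 of Plat (0.0517) and Bmp1 (0.13) were lost.

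Partners and substrates of the ADAM shedding enzymes, 24 genes and all tested, had calls in 2 contrasts and, for 1 gene, in the F test. Against NDL25, 1 fell in NYPD and 1 rose and 1 fell in YB, and 0 passed in the other 7 comparisons by limma, with 1 to 10 at an unadjusted p under 0.05 in each. Of all genes, 1.04% and 3.92% were called in these 2 contrasts. In the other 7, 7.56% to 20% of all genes reached an unadjusted p under 0.05 by limma. The count of 10 of 24 was that of YD minus NDL25 and of YE minus NYPD, beside 10.4% and 19.4% of all genes. The count of 1 was that of YE minus NDL25, beside 7.56%. Egf, a ligand of the EGF receptor made as a membrane precursor, was at 0.89 and 1.29 in NYPD pools against 2.82 and 2.72 in NDL25 pools, a difference of -1.67 with adjusted p = 0.0474. Cx3cl1, a membrane chemokine released by ADAM10 and ADAM17, was at 0.91 and 0.57 in YB pools against -0.34 and -0.45 in NDL25 pools, a rise of 1.14 with adjusted p = 0.0419. Tspan15, a tetraspanin that guides ADAM10, was at 1.42 and 1.60 in YB pools against 2.53 and 2.12 in NDL25 pools, a difference of -0.82 with adjusted p = 0.0378. Tspan14, another ADAM10 tetraspanin, differed among strains by the F test, from 1.32 in YB pool 2 to 2.12 in YC pool 1. With NDL25 pool 1 and YB pool 1 both left out, the calls of Egf (adjusted p = 0.179), Cx3cl1 (0.32) and Tspan15 (0.349) were lost.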

How the data were processed

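Gene expression of 12 tumour pools, 2 per strain, was measured on two-colour Agilent arrays, 1 pair of arrays with exchanged dyes per pool. The authors deposited the scanner output, whose values are intensities of both channels per spot, per the file headers, and for each pool 1 column of log ratios. RMA, limma and R 2.3.0 appear in the submitters' processing notes, with no roles. The log2 reading of the deposited ratios was checked against the scanner intensities, which they track with a size of r of at least 0.907 and slopes of 0.781 to 1.16, so their exact log base is not settled.

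The labels do not say which dye held the tumour RNA. Each array was turned by the sign of its correlation with the deposited ratio, and the tumour direction was taken from Elf5 and Lalba, high in mammary epithelium, and Afp, a fetal liver gene, which gave the same sign on all 24 arrays. In 9 samples the first array had the tumour in Cy3, in 3 samples in Cy5. The paired arrays correlated at -0.816 or below before turning.

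Background was corrected by normexp (offset 50), followed by loess normalisation within arrays, in limma 3.58.1 (R 4.3.3, data.table, version 1.17.8), and the pair of arrays was averaged per pool. Of 41174 probes, 1 per gene was kept, the brightest, and 229 genes whose tumour signal was well above background on fewer than 4 arrays and 2 with missing pools were left out, which leaves 28689. Member names are those of the files. A current RefSeq symbol was found by accession for 54 of the 68 members. Probe positions in the genome are not given in the sources used here. A limma model with 1 mean per strain (6 residual plus 1.76 prior degrees of freedom) gave the F test and 9 contrasts, adjusted by Benjamini-Hochberg over all genes, at a threshold of 0.05. The SE printed with each difference is limma's moderated one, and its median over genes was 0.109 in YB minus NDL25. The script was tested on simulated data.

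The members, the role groups and the gene lists were chosen with earlier results of these data known. The rule for named genes takes the TIMPs, 8 well-known members, each member past a threshold, the 4 smallest F-test p of each role group, and up to 6 genes past a threshold of each pathway list. Mmp15, Mmp7, Mmp23, Adamts4, Adamts5, Adam2, Adam3, Adam23 and the second Adamts16 probe are named in addition, chosen after their values were seen.

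The alternatives were the scanner's processed signals, median centring, no filter on dim probes, the deposited ratios, a mean over probes, the session as a block or alone, the pool number as a block, and leaving out each pool. Leaving out NDL25 pool 1 and YB pool 1 together was chosen after seeing the data.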

Additional observations from a re-analysis of the deposited data

How the results depend on the processing

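No contrast call of a member changed direction under any alternative, but most alternatives could not have changed it. In each such call the pools of the strains compared did not overlap, so leaving out pools could not turn it. Leaving out a pool of another strain, or adding a block, keeps the difference itself. Only the fits with other signals, scaling or probes could have turned a call. Of the recomputed counts, 53 of 99 stayed within 1.5 times their value for the 5 results with a member called, and 97 of 99 for the 5 with a count of 0. A like count need not mean the same members. The F-test count, 3 among the 6 strains in the report, was 0 with the session as a block, a fit that leaves out NYPD. In that fit YC pool 2, whose 2 arrays fell in different sessions, was placed by its first array. The session of YB and NDL25 holds only NDL25, YB and YC pool 1, so its F test does not compare the 6 strains. NYPD minus NDL25, 1 in the report, gave 0 with processed signals, median centring or the mean over probes, and 2 (Adamts6 and Timp2) with the deposited ratios, which hold 62 of the 68 members and lack Adamts1. With those ratios YB minus NDL25 gave 2, also Adamts6 and Timp2, and not Mmp13 (adjusted p = 0.0636) or Adamts15 (0.187). YB minus NDL25, 3 in the report, gave 1 (Adamts1) with the session as a block and 0 within that session. With NDL25 pool 1 and YB pool 1 both left out, an alternative chosen after seeing the data, NYPD minus NDL25 gave 0, YB minus NDL25 gave 1 (Mmp21) and YE minus NYPD gave 5 (Adam8, Mmp11, Mmp12, Mmp13 and Timp2). Fewer pools and fewer degrees of freedom are part of the session and left-out fits, and the session fits also hold fewer strains. The cause of the other changes was not tested. NYPD contrasts have no value with the session as a block, because strain and session cannot be told apart there.

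With the pool number as a replicate block, YB minus NDL25 gave 5 members (Adamts1, Adamts15, Mmp14, Mmp25 and Timp1), and Mmp13 there (adjusted p = 0.0569), Timp2 in YE minus NYPD (0.0517) and the F-test call of Adamts15 (0.0641) were lost. Same-numbered pools deviated together (r over 0.1) in 7 of 15 pairs of strains, and r ran from -0.172 to 0.708. The highest values were 0.708 for YC and YD, 0.613 for YD and YE and 0.461 for YC and YE. The main fit does not pair the pools, and whether their numbers mark a shared condition was not tested.

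When each pool was left out in turn, the lone pool of its strain being assumed to vary like the others, the counts ran from 0 to 5 among the 6 strains, from 0 to 3 in NYPD minus NDL25, from 0 to 11 in YB minus NDL25, from 0 to 3 in YB minus NYPD, from 0 to 1 in YC minus NYPD, from 0 to 1 in YD minus NYPD and from 0 to 6 in YE minus NYPD. The count of 11 came without YB pool 2, and 0 in YB minus NDL25 came without NDL25 pool 1. YB minus NYPD gave 0 without NYPD pool 2. YE minus NYPD gave 0 without either YE pool and 6 without either YB pool. Every member was well above background on at least 19 of 24 arrays in the tumour channel (Adam7 the fewest) and on at least 14 in the reference channel (Adamts13 the fewest), and the number of pools limits the precision.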
